A study of Mus musculus with 6 samples.

Results

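The genes described are 10 chains of interleukin and interferon receptors: Ifngr1, Ifngr2, Ifnar1, Ifnar2, Il6ra, Il6st, Il10ra, Il10rb, Il4ra and Il13ra1. They were chosen by gene symbol, in GENCODE M21, with earlier results of these data known. They are 10 of the 55401 genes of the deposited count table. They were measured by bulk RNA sequencing in RAW264.7, a mouse macrophage-like cell line labelled wild type. In 3 libraries the cells had received molybdenum disulfide (MoS2), a layered metal sulfide, at 6.25 µg/ml, and in 3 libraries they had received phosphate-buffered saline (PBS). The cells of both groups were otherwise grown alike, in DMEM with fetal bovine serum and antibiotics. How long the cells were treated is not stated in the labels. Nor do they say that replicates came from separate cultures, and the spread on which each p-value rests may therefore be technical. In bulk RNA, fewer cells that express a chain and less RNA per cell cannot be told apart.

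These receptors work as pairs of membrane proteins that lack enzyme activity of their own. A cytokine brings its chains together, the Janus kinases (JAK1, JAK2 or TYK2) bound to their tails become active, and STAT transcription factors are phosphorylated and enter the nucleus. In macrophages, interferon gamma and the type I interferons drive antimicrobial and antiviral genes, interleukin-10 restrains inflammatory genes through STAT3, interleukin-6 also acts through STAT3, and interleukins 4 and 13 drive alternative activation through STAT6.

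MoS2-treated cells had much less Il6ra and Ifngr1 RNA than PBS-treated cells, at 10.4-fold and 6.58-fold lower levels. Il10ra, Il10rb and Il6st fell by 2.63-fold, 2.25-fold and 2.01-fold, and Ifnar1 by 1.27-fold. Il13ra1 and Ifnar2 rose 1.36-fold and 1.17-fold relative to the bulk of genes, though both were lower when libraries were scaled by their totals alone. Ifngr2 and Il4ra did not pass the test. All 10 chains passed the low-count filter. With edgeR's quasi-likelihood test at a Benjamini-Hochberg adjusted p under 0.05, 6 of the 10 chains were called lower and 2 higher, where 42.4% and 38.3% of the 12972 genes tested were called lower and higher. With a log2 fold change of 1 or more asked as well, 5 chains were lower and 0 higher, against 23.7% and 19.5% of all genes tested. The median log2 fold change of the 10 chains was -0.68, and that of all genes tested was -0.08. For each of the 10 chains, no MoS2 library overlapped the PBS libraries in CPM (counts scaled to a common library size with the factors described next), which was true of 81.9% of all genes tested.

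These calls depend on how libraries are scaled. The scaling used, TMM, sets the bulk of genes level between libraries, and its factors were 0.743 to 0.783 in the MoS2 libraries and 1.305 to 1.31 in the PBS libraries. With library totals alone, the median of all genes shifted by -0.77 on the log2 scale, and all 10 chains were called lower, where 67.7% of all genes tested were. The order of the chains by change is not touched by this choice. The smaller changes, those of Il13ra1, Ifnar2, Ifngr2, Il4ra and Ifnar1, are therefore relative to the bulk of genes.

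**Figure D1:**
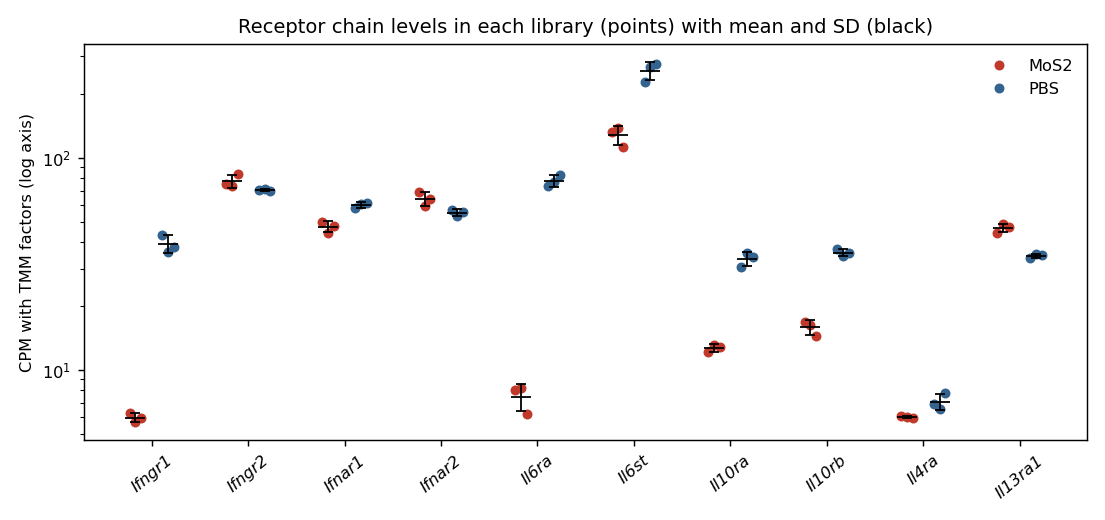
CPM with TMM factors on a log axis for the 10 receptor chains, with 1 point for each library, MoS2 left of PBS, and the mean and SD of 3 libraries in black. Il6ra lies at 6.22 to 8.19 CPM in MoS2 libraries and 73.2 to 83.2 CPM in PBS libraries, and Ifngr2, which is lower with MoS2 when libraries are scaled by their totals, at 73.6 to 83.3 CPM in MoS2 libraries and 69.4 to 70.9 CPM in PBS libraries.

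The DNA upstream of the start of each gene is shown for the chains with the largest falls, Il6ra and Ifngr1, and for 2 chains that were not called lower with TMM factors but were with library totals, Il13ra1 and Ifngr2. Each run is the 250 bases before the RefSeq start (GRCm38.p6), on the strand of the gene, 5′ to 3′. Capitals mark GGGCGG, the GC box bound by Sp family factors, and GAGGAA, a core letter string of the macrophage factor PU.1, on either strand.
Il6ra (chr3:89913197-89913446, minus strand): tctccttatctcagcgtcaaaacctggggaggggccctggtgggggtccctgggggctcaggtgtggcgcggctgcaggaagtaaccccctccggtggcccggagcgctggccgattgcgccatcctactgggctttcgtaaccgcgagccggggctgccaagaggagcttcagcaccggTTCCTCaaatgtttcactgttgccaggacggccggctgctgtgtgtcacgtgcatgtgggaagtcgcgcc
Ifngr1 (chr10:19591699-19591948, plus strand): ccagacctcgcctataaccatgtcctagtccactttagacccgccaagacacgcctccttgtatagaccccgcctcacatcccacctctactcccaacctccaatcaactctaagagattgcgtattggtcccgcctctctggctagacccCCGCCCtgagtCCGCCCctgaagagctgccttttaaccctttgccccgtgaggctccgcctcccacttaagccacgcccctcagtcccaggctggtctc
Il13ra1 (chrX:36111858-36112107, plus strand): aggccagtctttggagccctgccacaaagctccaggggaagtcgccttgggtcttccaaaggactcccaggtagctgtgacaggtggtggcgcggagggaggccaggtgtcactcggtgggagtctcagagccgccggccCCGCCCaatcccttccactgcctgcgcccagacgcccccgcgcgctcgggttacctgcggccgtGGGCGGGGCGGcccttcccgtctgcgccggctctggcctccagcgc
Ifngr2 (chr16:91546809-91547058, plus strand): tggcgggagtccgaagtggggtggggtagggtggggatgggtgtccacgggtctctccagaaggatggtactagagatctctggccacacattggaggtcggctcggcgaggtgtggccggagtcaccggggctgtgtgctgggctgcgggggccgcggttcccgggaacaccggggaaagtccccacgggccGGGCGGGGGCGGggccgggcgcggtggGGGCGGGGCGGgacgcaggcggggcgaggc
These windows were rich in G and C. GC content was 65.2% for Il6ra, 59.2% for Ifngr1, 70.8% for Il13ra1 and 74.0% for Ifngr2, and ran from 54.0% to 74.0% over the 8 chains in the RefSeq promoter table, with 11 to 26 CpG sites. The median of 32851 windows of the same length was 52.4% with 6 CpG sites. GGGCGG was found in 6 of the 8 windows, against 32.7% of all windows, and was missing from those of Il6ra and Ifnar2. GAGGAA was found upstream of Il6ra and Ifnar1, against 23.3% of all windows. The letters of an interferon response element (GAAA, any 2 bases, GAAA) were found in none of the 8 windows (3.0% of all). A loose NF-kB string (GGG, any 5 bases, CC), which can overlap the GC box, was found in 4 of the 8 windows (45.8% of all), CCAAT in 4 (33.8%) and CACGTG upstream of Il6ra alone (6.0%). TATAAA, the AP-1 string TGANTCA and the cyclic AMP response element TGACGTCA were in none of the 8 (12.4%, 6.7% and 1.5% of all). All strings were searched on both strands, and a match is a description of the letters in this window and not a site.

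The interferon gamma receptor is made of Ifngr1, which binds the ligand and carries JAK1, and Ifngr2, which carries JAK2. Ifngr1 (ENSMUSG00000020009.13, GRCm38 chromosome 10, 19591949 to 19610229) had 6.23, 5.67 and 5.92 CPM in MoS2-treated cells, against 43.4, 36.0 and 38.0 CPM in PBS-treated cells. Read counts behind these levels were 70 to 81 and 830 to 1001 per library. Each MoS2 library was far below each PBS library. The log2 fold change was -2.72, with an SE of 0.12 (edgeR adjusted p = 8.1e-11), and 4.56% of the genes tested had a lower value. All errors of log2 fold changes given hereafter are SEs. Its partner Ifngr2 (ENSMUSG00000022965.8, GRCm38 chromosome 16, 91547072 to 91565623) had 75.5, 73.6 and 83.3 CPM with MoS2, against 70.8, 70.9 and 69.4 CPM with PBS. The MoS2 libraries lay slightly above the PBS libraries, at a log2 fold change of 0.14 ± 0.07, which did not pass the test (edgeR adjusted p = 0.079). With RLE factors and with each library's trend on gene length removed it passed, at 0.18 and 0.27 (edgeR adjusted p = 0.028 and 9.6e-04), and DESeq2 also called it higher (0.18, adjusted p = 0.043). With library totals it had -0.63 and passed in the other direction (edgeR adjusted p = 8.1e-07).

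The receptor for interleukin-6 is made of Il6ra, which binds the cytokine but does not signal, and Il6st (gp130), the signalling chain that interleukin-11, leukemia inhibitory factor and oncostatin M also use. Il6ra (ENSMUSG00000027947.11, GRCm38 chromosome 3, 89864059 to 89913196) had 7.99, 8.19 and 6.22 CPM with MoS2, against 73.2, 76.4 and 83.2 CPM with PBS. This was the largest change of the 10 chains, with 85 to 101 reads per MoS2 library and 1688 to 1852 per PBS library. Its log2 fold change was -3.38 ± 0.11 (edgeR adjusted p = 6.1e-12), and 2.57% of the genes tested had a lower value. Il6st (ENSMUSG00000021756.12, GRCm38 chromosome 13, 112464070 to 112510086) had 132, 138 and 113 CPM with MoS2, against 228, 267 and 276 CPM with PBS. All MoS2 libraries were lower. The coefficient of variation of Il6st between libraries was 10.4% with MoS2 and 9.99% with PBS, and that of Il6ra was 14.5% and 6.59%. The log2 fold change of Il6st was -1.01 ± 0.09 (edgeR adjusted p = 1.2e-07).

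The interleukin-10 receptor pairs Il10ra, the ligand-binding chain that carries JAK1 and recruits STAT3, with Il10rb, a TYK2-binding chain shared with the receptors of interleukin-22 and the interferon lambda family. Il10ra (ENSMUSG00000032089.16, GRCm38 chromosome 9, 45253837 to 45269149) had 12.1, 13.0 and 12.9 CPM with MoS2, against 30.6, 35.6 and 33.8 CPM with PBS. Il10rb (ENSMUSG00000022969.13, GRCm38 chromosome 16, 91406164 to 91425834) had 16.9, 16.3 and 14.5 CPM with MoS2, against 37.1, 34.3 and 35.6 CPM with PBS. The groups were well apart for both chains, which fell by a like amount. Log2 fold changes were -1.40 ± 0.10 for Il10ra (edgeR adjusted p = 1.4e-08) and -1.17 ± 0.09 for Il10rb (edgeR adjusted p = 4.6e-08).

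Type I interferons, the interferon alpha and beta family, bind Ifnar2, the high-affinity chain that carries JAK1, and Ifnar1, which carries TYK2. Ifnar1 (ENSMUSG00000022967.13, GRCm38 chromosome 16, 91485238 to 91507441) had 49.8, 44.2 and 47.7 CPM with MoS2, against 57.8, 60.7 and 61.2 CPM with PBS. Ifnar2 (ENSMUSG00000022971.18, GRCm38 chromosome 16, 91372783 to 91405589) had 69.2, 59.3 and 63.9 CPM with MoS2, against 56.8, 52.9 and 55.4 CPM with PBS. The partners moved in opposite directions relative to the bulk of genes, by small amounts, and both were lower with library totals. Ifnar1 fell by 0.34 ± 0.07 on the log2 scale (edgeR adjusted p = 6.9e-04), and it was no longer called with the trend on gene length removed (-0.11, edgeR adjusted p = 0.143) or in a test against a fold of 1.2 (edgeR adjusted p = 0.07). Ifnar2 rose by 0.22 ± 0.08 (edgeR adjusted p = 0.016), a call that was lost without MoS2 replicate 1 (0.17, edgeR adjusted p = 0.091) and without PBS replicate 2 (0.19, edgeR adjusted p = 0.081). It was also lost with upper-quartile factors (0.09, edgeR adjusted p = 0.277), without the low-count filter (0.14, edgeR adjusted p = 0.176) and against a fold of 1.2, and with library totals Ifnar2 had -0.55 (edgeR adjusted p = 1.3e-05).

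Il4ra binds interleukin-4, and with Il13ra1 it forms a receptor through which interleukins 4 and 13 activate STAT6. Il4ra (ENSMUSG00000030748.9, GRCm38 chromosome 7, 125552120 to 125579474) was the least abundant chain with PBS, with 6.07, 6.0 and 5.92 CPM in MoS2-treated cells against 6.89, 6.56 and 7.77 CPM in PBS-treated cells. The MoS2 libraries lay just below the PBS libraries, and the log2 fold change of -0.24 ± 0.15 did not pass (edgeR adjusted p = 0.162). With upper-quartile factors and with library totals it passed, at -0.37 and -1.01 (edgeR adjusted p = 0.039 and 2.8e-05). Il13ra1 (ENSMUSG00000017057.9, GRCm38 chromosome X, 36112110 to 36171259) had 44.3, 48.6 and 47.0 CPM with MoS2, against 33.5, 35.0 and 34.7 CPM with PBS. It was the chain with the highest fold change, at 0.44 ± 0.08 on the log2 scale (edgeR adjusted p = 1.0e-04), and with library totals it had -0.33 (edgeR adjusted p = 0.0013).

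**Figure D2:**
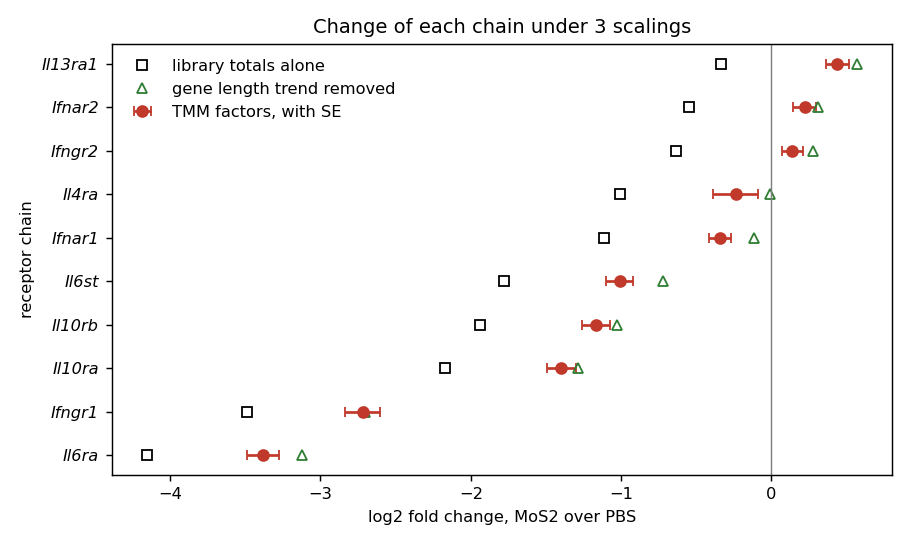
Log2 fold change of each chain, MoS2 over PBS, with TMM factors and its SE (filled circles), with library totals alone (open squares) and with the trend on gene length removed (open triangles). Library totals move every chain to the left, and Il13ra1, Ifnar2 and Ifngr2 cross 0.

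The share of a receptor's chains within a library needs no scaling factor, so the 5 pairs were also compared by the log2 ratio of their read counts in each library. Such a ratio does not remove a trend on gene length. Partners differ in length (5940 bases for Ifnar1 and 3329 for Ifnar2), and the ratios were not corrected for it. The ratio of Ifngr1 to Ifngr2 reads was 0.0825, 0.0771 and 0.0711 in MoS2 libraries, against 0.613, 0.508 and 0.548 in PBS libraries, a log2 difference of -2.85. The ratio of Il6ra to Il6st reads was 0.0606, 0.0591 and 0.0551 with MoS2, against 0.321, 0.286 and 0.301 with PBS, a log2 difference of -2.37. In both receptors the ligand-binding chain was lower relative to its partner with MoS2, by 7.2-fold and 5.2-fold. Smaller shifts were seen for Il4ra over Il13ra1, at 0.137, 0.123 and 0.126 with MoS2 against 0.206, 0.188 and 0.224 with PBS (log2 difference -0.67), and for Ifnar1 over Ifnar2, at 0.719, 0.744 and 0.746 with MoS2 against 1.02, 1.15 and 1.11 with PBS (-0.56). None of these 4 ratios overlapped between the groups. How often ratios of other gene pairs do not overlap was not worked out, and 81.9% of single genes tested did not overlap in CPM. Il10ra over Il10rb did overlap, at 0.716, 0.801 and 0.889 with MoS2 against 0.826, 1.04 and 0.951 with PBS (-0.23). In exact two-sided permutation tests, the first 4 pairs had p = 0.1, the smallest that 3 against 3 libraries can give, and Il10ra over Il10rb had p = 0.2. Adjusted over the 5 pairs by Benjamini-Hochberg, these permutation p-values were 0.125 and 0.2, so no pair could pass a threshold of 0.05.

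**Figure D3:**
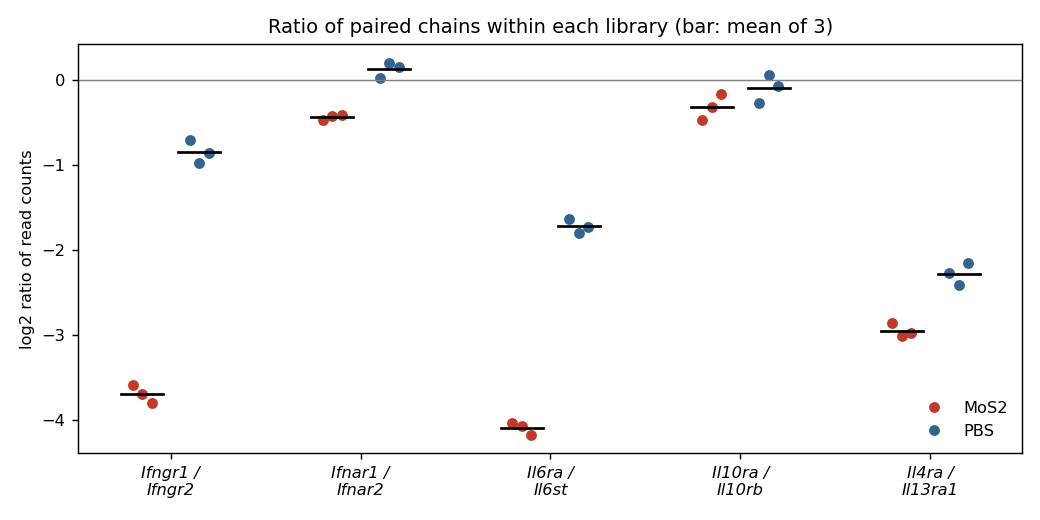
Log2 ratio of the read counts of paired chains within each library (points) with the mean of 3 libraries (bars), MoS2 left of PBS. The groups are apart for 4 pairs, by 2.85 for Ifngr1 over Ifngr2 and 2.37 for Il6ra over Il6st, and overlap for Il10ra over Il10rb. How often other gene pairs lie apart was not worked out.

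Levels of different chains were compared per length, as TPM, a share of transcripts worked out from the counts and the table's exon lengths, and only within a group. In MoS2-treated cells Ifngr2 (37.0 ± 0.79 TPM, SD, n = 3) and Ifnar2 (34.8 ± 2.6 TPM) came first, and their ranges overlapped. Il13ra1 (22.7 ± 1.7 TPM) and Il6st (20.8 ± 3.1 TPM) overlapped next, followed by Ifnar1 (14.3 ± 0.78 TPM). Il10rb (7.54 ± 0.88 TPM) and Il10ra (6.54 ± 0.43 TPM) overlapped, Ifngr1 stood alone at 3.77 ± 0.20 TPM, and Il4ra (1.80 ± 0.10 TPM) and Il6ra (1.57 ± 0.29 TPM) overlapped at the low end. In PBS-treated cells Il6st was highest (98.5 ± 11.5 TPM), then Ifngr2 (79.4 ± 0.81 TPM), Ifnar2 (70.3 ± 3.0 TPM) and Ifngr1 (58.4 ± 5.3 TPM), each apart from its neighbours. Ifnar1, Il10ra, Il10rb, Il13ra1 and Il6ra formed a run from 42.9 to 38.2 TPM in which each overlapped the next, and Il4ra was far below at 5.02 ± 0.55 TPM. Il6st was thus 13.3 times as abundant as Il6ra in MoS2-treated cells, against 2.58 times in PBS-treated cells, and Ifngr2 was 9.84 times as abundant as Ifngr1, against 1.36 times.

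**Figure D4:**
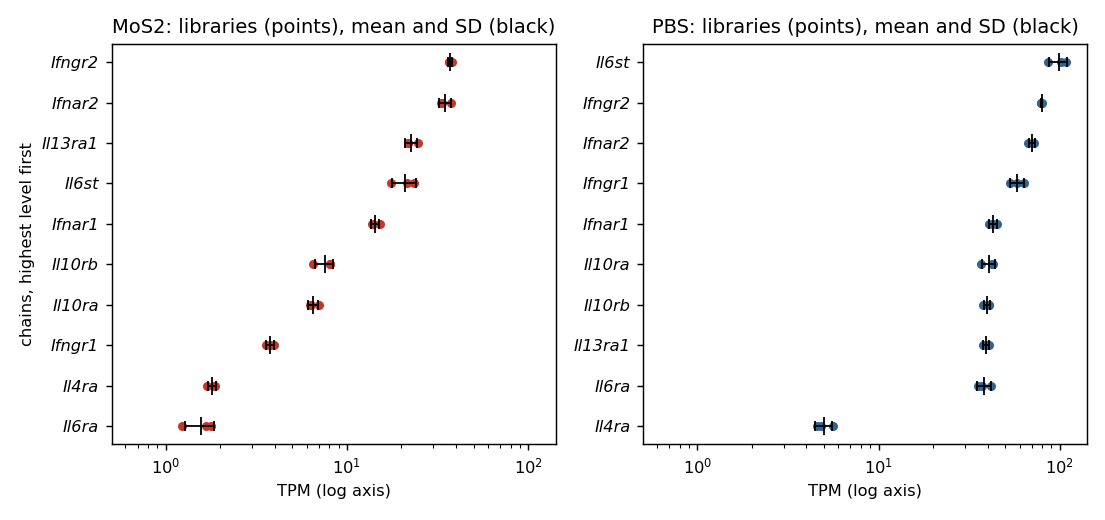
TPM of the 10 chains on a log axis, MoS2 in the left panel and PBS in the right one, each with its highest chain on top, points for libraries and mean with SD in black. Il6ra is last in MoS2-treated cells at 1.57 TPM, while in PBS-treated cells Il4ra is last at 5.02 TPM.

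The genes Ifnar2, Il10rb, Ifnar1 and Ifngr2 lie in this order, on the plus strand, within 192.8 kb of mouse chromosome 16 (GRCm38, 91372783 to 91565623). Their log2 fold changes, in the same order, were 0.22 ± 0.08, -1.17 ± 0.09, -0.34 ± 0.07 and 0.14 ± 0.07, and all 4 were below 0 with library totals. Of the 8 other annotated genes between them, 2 had enough reads to be tested, the noncoding A930006K02Rik (-0.01 ± 0.49) and the pseudogene Gm7860 (0.13 ± 0.47), and edgeR called neither (adjusted p = 0.987 and 0.798). The gene model Gm21970, which overlaps both, shares 14.9% of the exon bases of Il10rb and 9.46% of those of Ifnar2, and it had 0 reads in each library. Other gene models overlap 9.51% of the exon bases of Il4ra and 2.80% of those of Il6ra, and reads in those stretches are uncertain.

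**Figure D5:**
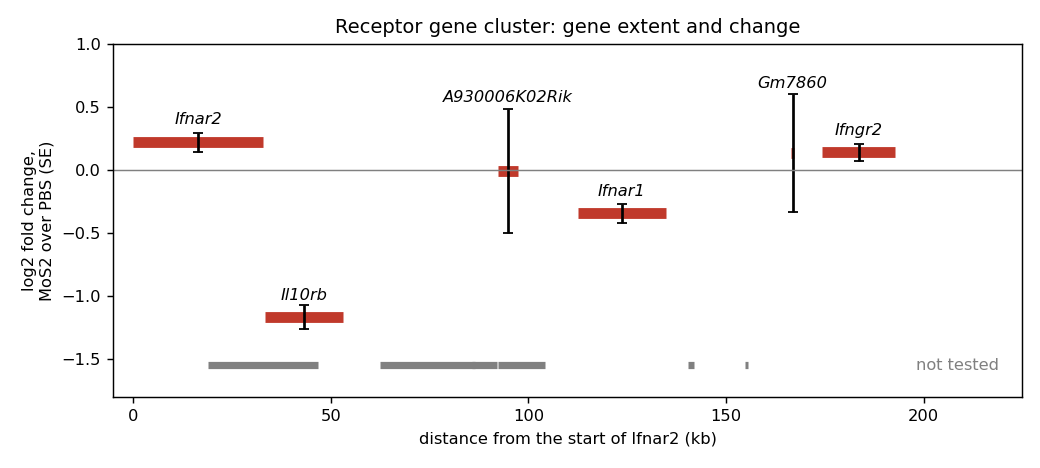
Log2 fold change (MoS2 over PBS, with SE) of the genes of the chromosome 16 cluster against distance in kb from the start of Ifnar2, where red bars span each tested gene and grey bars mark genes with too few reads to test. Il10rb, at -1.17, lies below its neighbour Ifnar2, at 0.22, and with library totals all 4 chains lie below 0.

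Other chains of the same receptor families were called at shares near those of all genes tested. Of 34 further class I and class II cytokine receptor chains, 14 had enough reads to be tested, and edgeR called 6 higher (42.9%) and 7 lower (50.0%), with a median log2 fold change of -0.36, against 38.3% and 42.4% of all genes tested. With library totals 1 was higher and 10 lower (71.4%, against 67.7% of all genes tested). Il21r and Epor, both called lower, passed the low-count filter only through PBS libraries, and Il9r, called higher, only through MoS2 libraries. These shares and the median therefore depend in part on the filter, and with 1 CPM asked in 3 libraries 5 were higher and 7 lower. Csf3r, the receptor of granulocyte colony-stimulating factor, had 3.51 ± 0.20 CPM with MoS2 against 30.0 ± 1.1 CPM with PBS (log2 fold change -3.10 ± 0.12, edgeR adjusted p = 3.6e-11). Csf2rb, the common beta chain of the GM-CSF, interleukin-3 and interleukin-5 receptors, had -1.83 ± 0.10 (edgeR adjusted p = 1.2e-09), and its reads are uncertain because of its near-identical neighbour Csf2rb2. Il2rg, the common gamma chain that also pairs with Il4ra, rose to 88.1 ± 4.7 CPM with MoS2, against 44.4 ± 1.7 CPM with PBS (0.99 ± 0.07, edgeR adjusted p = 1.5e-08).

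Ligands of the 10 chains were mostly at or near 0, and 7 of 21 were tested. Osm, Lif, Il27, Ebi3 and Il6 were called higher by edgeR and Il4 lower, with a median log2 fold change of 2.35. The share higher was 71.4%, also with library totals, against 38.3% and 18.0% of all genes tested. Il27 and Ebi3, which encode subunits of the same cytokine, interleukin-27, are counted separately in it. Il6 had 54 reads with MoS2 and 1 with PBS, and Il4 had 9 and 104. Il6 and Lif passed the low-count filter only through MoS2 libraries, and Il4 only through PBS libraries. The share and the median therefore depend in part on the filter, and with 1 CPM asked in 3 libraries 4 ligands were higher. Osm, which encodes oncostatin M, had 53.4 ± 2.4 CPM with MoS2 against 6.43 ± 0.96 CPM with PBS (3.05 ± 0.11, edgeR adjusted p = 1.9e-11). Lif, leukemia inhibitory factor, had 9.05 ± 0.38 CPM against 0.397 ± 0.23 CPM (4.49 ± 0.31, edgeR adjusted p = 8.3e-09), from only 3, 12 and 12 reads in the PBS libraries. Ebi3, a subunit of interleukin-27, had 37.5 ± 0.80 CPM against 17.6 ± 1.8 CPM (1.09 ± 0.09, edgeR adjusted p = 1.1e-07), and 0.49 with the trend on gene length removed. Both leukemia inhibitory factor and oncostatin M signal through Il6st, with Lifr or Osmr as the second chain. Lifr had 0 reads in all MoS2 libraries and 57 in all PBS libraries, and Osmr had 2 and 0. Il27ra, a chain of the interleukin-27 receptor, had 4 and 39. The interferon genes Ifng, Ifna1, Ifna2, Ifna4, Ifna5, Ifnk and Ifne and the cytokine gene Il22 had 0 reads in all 6 libraries. By counting error alone, this allows up to 0.0292 CPM over the 6 libraries pooled, without TMM factors (3 reads in 102840751). The limit within 1 group is higher. Ifnb1 had 40 reads with MoS2 and 1 with PBS, and Il10 had 3 and 0.

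Downstream of the receptors, edgeR called 9 of 27 tested JAK, STAT and feedback genes higher (33.3%) and 12 lower (44.4%), with a median of -0.04. With library totals 3 were higher and 20 lower (74.1%), and under both scalings the shares lay near those of all genes tested. Socs3, a feedback inhibitor that binds the tail of Il6st, rose by 1.66 ± 0.08 on the log2 scale, to 56.4 ± 1.3 CPM with MoS2 against 17.9 ± 0.33 CPM with PBS (edgeR adjusted p = 1.8e-10). Stat6, the factor activated through Il4ra, had 51.2 ± 1.9 CPM against 130.5 ± 5.8 CPM (-1.35 ± 0.07, edgeR adjusted p = 3.9e-10), and the phosphatase Ptpn11 had -1.12 ± 0.06 (edgeR adjusted p = 1.4e-09).

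Genes known to be raised through these receptors were counted by pathway, and the pathways were not tested against each other. Of 25 tested interferon target genes, 19 were higher (76.0%) and 4 lower (median 1.02), or 14 (56.0%) and 6 with library totals, where 38.3% of all genes tested were higher, or 18.0% with library totals. Those with the smallest adjusted p were Rsad2, Ifit2 and Oasl1, at log2 fold changes of 5.43, 3.31 and 1.99 (edgeR adjusted p at most 5.3e-12). Gbp3, among those called higher, passed the low-count filter only through MoS2 libraries. Of 19 tested STAT3 target genes, 13 were higher (68.4%) and 3 lower (median 1.48), or 12 (63.2%) and 6 with library totals. Those with the smallest adjusted p were heme oxygenase Hmox1 (4.39), the interleukin-1 receptor antagonist Il1rn (3.55) and the mRNA decay factor Zfp36 (3.41), with edgeR adjusted p at most 1.0e-13. Of 24 STAT6 target genes, only 9 had enough reads to be tested, and 6 had 0 reads in every library. Of the 9 tested, 1 was higher and 6 lower (66.7%, median -0.87), against 42.4% of all genes tested lower. With library totals the counts were again 1 and 6, a share lower that lay at that of all genes tested, 67.7%. The gene higher was Cish, a feedback inhibitor that is also a target of STAT5 (3.69 ± 0.27, edgeR adjusted p = 2.0e-08), and the lectin gene Clec10a and the transcription factor gene Klf4 had -3.64 ± 0.27 and -1.61 ± 0.16 (edgeR adjusted p = 2.4e-08 and 5.3e-07). Clec10a had 18 reads in all MoS2 libraries, and Mrc1, also called lower, had 2 with MoS2 and 35 with PBS. Both passed the low-count filter only through PBS libraries. Cish, also counted among the feedback genes above, passed it only through MoS2 libraries. The share and the median of the STAT6 targets therefore depend in part on the filter. Of the STAT6 targets not tested, Ccl22 had more reads with MoS2, 32 against 3 with PBS. Many of these genes respond to other signals as well, and whether their changes bear on the receptor chains was not tested.

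The genes most like Il6ra across the 6 libraries, by Euclidean distance of log2 CPM centred on each gene's mean, among 9197 genes that averaged 5 CPM or more, Gm and Rik symbols and pseudogenes left out, were Rab7b (distance 0.14), Prr12 (0.27), Mfsd4b4 (0.29), Lpar5 (0.30) and Cd33 (0.30). With 2 groups this measure mostly reflects the size of the difference between them. Rab7b, an endosomal GTPase gene, had 8.97 ± 1.1 CPM with MoS2 against 94.7 ± 8.9 CPM with PBS, and Cd33, a sialic acid-binding lectin gene, had 76.3 ± 3.7 CPM against 663 ± 47.3 CPM.

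Total counts ran from 15767618 to 18412762 with MoS2 and from 17008020 to 17695883 with PBS, and each library had 17660 to 19630 genes with a read. No libraries of a group agreed within sampling noise. All 12 macrophage markers had reads, though Mertk was close to 0. Of the 11 tested, edgeR called 4 higher and 4 lower, near the shares of all genes tested (38.3% and 42.4%). The summed level of the 12 markers was 6263 to 6512 CPM with MoS2 and 8189 to 8392 CPM with PBS. Summed levels of T and NK cell, B cell, fibroblast and epithelial markers were at most 0.958 CPM with MoS2 and 1.13 CPM with PBS, with Cd3d, Cd8a, Ms4a1, Col3a1, Krt5 and Krt14 at 0 reads. The 5 endothelial markers summed to 3.57 to 4.39 CPM with MoS2 and 11.8 to 12.8 CPM with PBS, mostly from Vwf, and their part in the results was not tested.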

How the data were processed

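The authors deposited 1 table of raw gene counts for 55401 mouse Ensembl genes, with each gene's exon length in bases. The tools named in the submitters' processing notes are featureCounts 1.6.1, HISAT2 2.1.0 and fastp 0.20.0. Those notes name a human build, but all identifiers are mouse and 54349 match GENCODE M21 (GRCm38) with identical coordinates. Strand and multi-mapping settings are not stated, so reads of overlapping or near-identical genes are uncertain. Columns were matched to samples by letter and replicate number.

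Counts of all 6 libraries were tested with edgeR 4.0.16 (R 4.3.3, quasi-likelihood F test, group as the only term, TMM factors, default low-count filter, 12972 genes kept) at a Benjamini-Hochberg adjusted p under 0.05 over all genes tested. Fold changes are MoS2 relative to PBS on the log2 scale (prior count 0.125), and their SE is the size of the change over the square root of F. CPM used TMM factors, and TPM used the table's lengths. Chain ratios used counts + 0.5 and exact permutation tests. The fit was tested on simulated data. All 202 entries of the other gene lists matched a symbol.

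Named genes were the 10 chains, in each list the 3 genes with the smallest adjusted p, the 5 genes nearest to the most changed chain, and genes between clustered chains. Others (such as Il27, Il6, Il4, Lifr and Osmr) were named after their values were seen. The chains and lists were chosen with earlier results of these data known. Promoter sequences come from the RefSeq table (GRCm38.p6), which held 8 of the 10 chains; 1 string searched in them is not reported here. Alternatives were other factors, filters and thresholds, DESeq2 1.42.0, limma-voom (limma 3.58.1), a test against a fold of 1.2, a correction for a trend on gene length within a library, a term for the replicate number, other pseudocounts, and leaving out each library.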

Additional observations from a re-analysis of the deposited data

How the results depend on the processing

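Log2 fold changes of Ifngr1, Il6ra, Il6st, Il10ra and Il10rb kept their direction and call in all 17 alternatives, with ranges of -3.49 to -2.64, -4.15 to -3.12, -1.78 to -0.72, -2.17 to -1.29 and -1.94 to -1.03. With library totals alone, Ifngr2, Ifnar2 and Il13ra1 reversed to -0.63, -0.55 and -0.33, and 0 chains were higher and 10 lower. That setting gave 2334 genes higher and 8786 lower over all tested, 1 other receptor chain higher, 2 ligands lower, 3 JAK and STAT genes higher and 20 lower, and 6 STAT3 targets lower. The number of chains called higher was 1, in place of 2, at an adjusted p under 0.01, without the low-count filter, in the test against a fold of 1.2 and with upper-quartile factors, and it was 3, with Ifngr2 added, with DESeq2, with RLE factors and with the length trend removed. Ligands called lower were 2, in place of 1, with the length trend removed, with limma-voom, without the filter and with upper-quartile factors. Interferon targets called lower were 2, in place of 4, with the length trend removed and in the test against a fold of 1.2, and STAT6 targets called higher were 2 without the filter. Smaller shifts are not all listed here. Chains called lower, for example, were 5, in place of 6, with the length trend removed and in the test against a fold of 1.2, and 7 with upper-quartile factors. JAK, STAT and feedback genes called higher were 13, in place of 9, with the length trend removed. The cause of these differences was not tested.

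Leaving out each library in turn gave 1 to 2 chains called higher and 6 to 6 lower, 1 to 2 ligands lower and 1 to 2 STAT6 targets higher. Chain ratio differences ranged from -2.91 to -2.77 for Ifngr1 over Ifngr2, from -2.41 to -2.33 for Il6ra over Il6st, from -0.73 to -0.61 for Il4ra over Il13ra1, from -0.61 to -0.53 for Ifnar1 over Ifnar2 and from -0.31 to -0.15 for Il10ra over Il10rb. Ordered by CPM in place of TPM, 3 of the 10 chains kept their rank with MoS2 and 4 with PBS.

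Libraries with the same replicate number did not deviate together (correlations of -0.02, -0.01 and -0.14, and 0 of 6 libraries matched their own number best). No pairing by number was thus seen, though 3 libraries per group are too few to exclude one. With the replicate block, 2 chains were higher and 6 lower, and 4848 and 5355 genes over all tested. A block for the chain ratios allows no p under 0.25 in the exact permutation test. Depth limits Il4ra, Ifngr1 and Il6ra most, with 70 to 101 reads per MoS2 library.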
